A study of Bos taurus with 72 samples.

Results

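Bovine mammary epithelial cells (BMECs) that received tryptophan as their only essential amino acid (EAA) were compared with BMECs that received no EAA. The members were the 6 tryptophan libraries (Trp) and the 6 libraries of EAA-free medium (NEG), which make 12 of the 72 RNA-seq libraries of the series. Libraries were assigned to these groups by their labels, not by measured values. The series holds 12 media with 6 libraries each, sampled after 6 h. The NEG medium was DMEM-F12 lacking every EAA, and Trp was NEG with tryptophan brought to the concentration of complete medium. Of the other media, 9 were NEG with valine, leucine, isoleucine, arginine, histidine, lysine, threonine, methionine or phenylalanine alone, and the positive control (POS) was complete DMEM-F12. All groups were wild-type primary cells at passage 6, grown out of pieces of mammary gland from healthy dairy cows, separated from fibroblasts by their sensitivity to trypsin and starved of serum overnight before treatment. The sources used here do not give the number of cows behind the cells, and the paper calls the 6 libraries of a medium biological replicates, whereas the labels do not say whether they came from separate cultures. The p-values measure the spread between these libraries, which may in part be technical.

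Tryptophan is an EAA because cattle, like other mammals, cannot make it. Cells use it for protein synthesis and as the start of the kynurenine and serotonin pathways, and the mammary gland draws it from blood to make milk proteins. A cell short of an EAA accumulates uncharged transfer RNA, which activates the kinase GCN2 and raises translation of the transcription factor ATF4, while the growth kinase complex mTORC1 senses several amino acids through other proteins. A single EAA added to medium lacking all the others leaves those others short.

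Expression was read as FPKM, the number of fragments divided by gene length and by library size, which puts genes of different length on 1 scale. Differences are between means of log2(FPKM + 1), so 1 unit is close to a doubling for a gene of high FPKM and stands for more than a doubling for a gene of low FPKM. The 12121 genes that averaged an FPKM of 1 or more over the 72 libraries were tested with limma, and adjusted p is the Benjamini-Hochberg value over all of them. The deposited table gives Ensembl cattle identifiers without gene symbols, and none of them could be matched to the reference table used here, so genes are given by identifier, gene length and level. For the same reason, the markers of epithelial cells and fibroblasts, and the genes of tryptophan use, were not checked. In such bulk samples, fewer cells of a type and less RNA per cell cannot be told apart.

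The whole reads behind the FPKM were recovered from the table. Trp libraries held 14392208 to 16406220 reads and NEG libraries 15907877 to 17910733, and the Trp mean was lower (two-sided exact permutation test, p = 0.0130, n = 6 and 6). The part of this depth difference in the results was not tested. Genes above 0 numbered 16813 to 17753 in Trp and 16596 to 17707 in NEG (two-sided exact permutation test, p = 0.939). A pair of libraries stood apart. In NEG replicate 2, the 100 genes with the most reads took 28.3% of all reads, against 25.5% to 26.2% in the other NEG libraries. Trp replicate 1 stood apart on single genes: 603 genes had the other 5 Trp libraries below every NEG library while Trp replicate 1 was not, whereas each of the other Trp libraries was the exception for 15 to 193 genes. In the upward direction Trp replicate 1 was the exception for 566 genes and each of the other libraries for 14 to 106. The main counts and the genes named below are therefore also given without both libraries. Those counts of exceptions mark a Trp library only in genes where it lies on the NEG side of the other 5. They do not mark a library that lies farther from NEG than the rest.

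Tryptophan lowered more genes than it raised. With an adjusted p under 0.05 and a difference over 1 in size, 72 genes rose and 298 fell, 370 in all, which is 0.594%, 2.46% and 3.05% of the genes tested. With the unadjusted p under 0.05, the count was 374 (3.09%), of which 75 rose (0.619%) and 299 fell (2.47%). Without Trp replicate 1 and NEG replicate 2, 373 genes passed the adjusted limit, of which 51 rose and 322 fell, and 307 of them were among the 370. The omissions moved the count in opposite directions, to 567 without Trp replicate 1 alone (82 rose, 485 fell) and to 208 without NEG replicate 2 alone (34 rose, 174 fell). It was 216 without Trp replicate 6. The excess of falls was smaller when libraries were scaled by their total reads (99 rose, 174 fell) and when the trend with gene length was removed (69 rose, 103 fell).

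Most changes were small. An adjusted p under 0.05 alone was met by 5155 genes (42.5%), with 1819 higher (15%) and 3336 lower (27.5%) in Trp, and the median size of their differences was 0.54. Only 7.18% of these exceeded 1 in size. Differences over 1.5 in size were found for 42 of the 370 genes, of which 11 rose and 31 fell. The FPKM of all 6 Trp libraries lay outside the NEG range for 2759 genes (22.8%), above it for 910 (7.51%) and below it for 1849 (15.3%). The median difference over all genes was -0.06, and 0.04 when libraries were scaled by total reads.

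**Figure D1:**
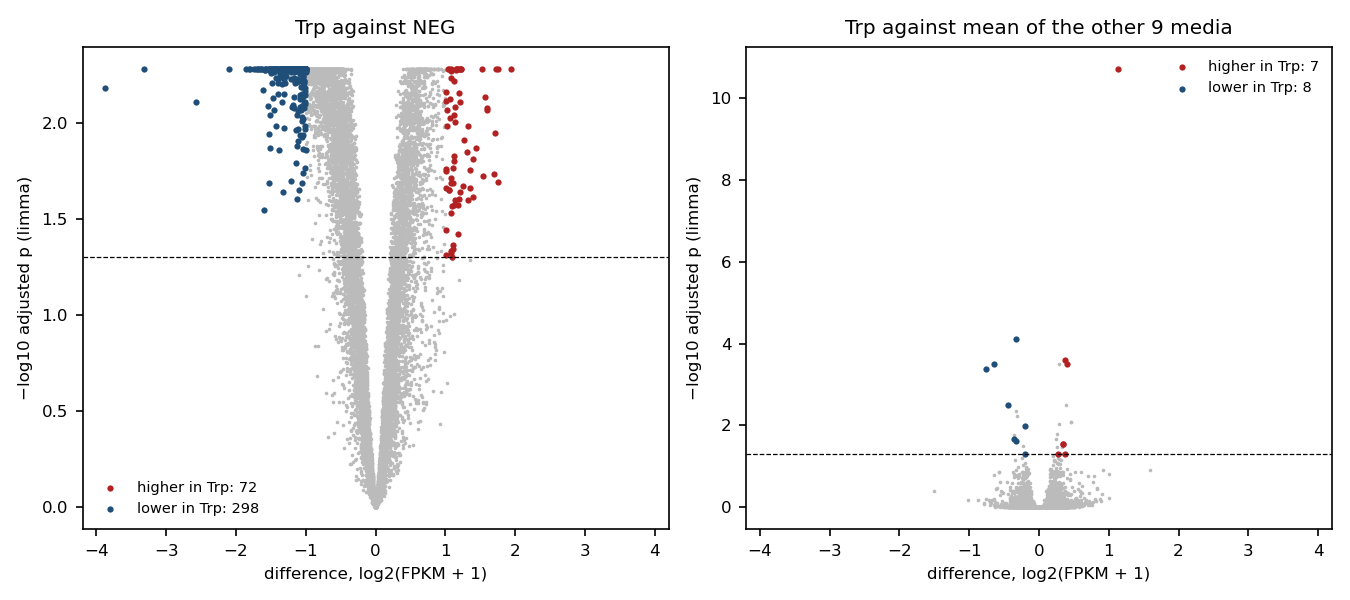
Differences on the log2(FPKM + 1) scale (x axes) against the −log10 of the limma adjusted p (y axes, of different range) for the genes tested, with the adjusted p threshold of 0.05 dashed. In Trp against NEG (left), 298 genes coloured as lower and 72 coloured as higher also pass a difference of 1, and in Trp against the mean of the other 9 single-EAA media (right), 8 lower and 7 higher genes are coloured and 1 of them lies far above the rest.

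The genes that fell and the genes that rose were of different kinds. The 298 that fell had a median length of 930 bp and a median FPKM of 16.7 in Trp against 39.5 in NEG, with a median of 576.25 reads in NEG. The 72 that rose had a median length of 134.5 bp and a median FPKM of 6.71 in Trp against 2.28 in NEG, with a median of 13.25 reads in Trp. The median length of all genes tested was 2342 bp. A NEG library at 0 was found for 32 of the 72 genes that rose, and 28 of them had a median under 10 reads in Trp, while 12 had a median of at least 100 reads there, up to 3700. Of the genes that fell, 12 had a Trp library at 0 and 7 had a median under 10 reads in NEG. Ranges of Trp and NEG did not overlap for 224 of the 298 that fell and for 20 of the 72 that rose, against the 15.3% and 7.51% of all genes given above. Since these genes were selected by the same contrast, nothing is read from those shares.

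Among genes whose ranges did not overlap and whose mean FPKM reached 3 in the higher group, the largest rise was that of ENSBTAG00000044741, a gene of 152 bp. Its FPKM in Trp replicates 1 to 6 was 7.70, 10.8, 7.61, 11.2, 15.0 and 10.5. In NEG replicates 1 to 6 it was 0.808, 1.46, 2.99, 3.74, 4.21 and 0.398. Every Trp library was above every NEG library, although these values rest on 18 to 36 reads in Trp and 1 to 11 reads in NEG. The means were 10.5 ± 2.71 and 2.27 ± 1.60 (SD, n = 6 each), a ratio of 4.61, and the difference on the log2(FPKM + 1) scale was 1.94 (SE 0.30, limma adjusted p = 0.00522). Without Trp replicate 1 and NEG replicate 2 it was 1.97 (limma adjusted p = 0.00121). No change particular to tryptophan was found for this gene. Its mean was above that of NEG in every other medium, from 3.63 with arginine to 10.0 with valine and 13.4 in POS, and Trp against the mean of the other 9 single-EAA media differed by 0.60 (SE 0.31, limma adjusted p = 0.729).

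The other 9 of the 10 largest rises of this kind had differences of 1.02 to 1.73. Over all 10, gene lengths ran from 69 to 11466 bp with a median of 478.5 bp, and mean FPKM from 3.02 to 113 in Trp and from 0.954 to 58.8 in NEG. The set mixed very short genes with long ones: 3 of the 10 were between 4521 and 11466 bp, with mean FPKM in Trp of 8.60, 25.1 and 11.3 against 3.77, 12.9 and 5.37 in NEG. The most highly expressed of the 10, a gene of 1557 bp, had a mean FPKM of 113 in Trp against 58.8 in NEG. In 5 of the 10 rises, among them those of the 3 long genes, NEG replicate 2 was more than 1 below the lowest of the other NEG libraries on the log2(FPKM + 1) scale. Without Trp replicate 1 and NEG replicate 2, all 10 kept an adjusted p under 0.05, but only 4 kept a difference over 1, and the range became 0.70 to 1.97.

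The largest fall under the same rule was that of ENSBTAG00000006813, a gene of 213 bp. Its FPKM in Trp replicates 1 to 6 was 16.8, 6.51, 14.0, 11.7, 7.12 and 5.61, and in NEG replicates 1 to 6 it was 36.9, 59.5, 38.1, 38.0, 29.2 and 27.5. The highest Trp library was below the lowest NEG library. Means were 10.3 ± 4.57 and 38.2 ± 11.4 (SD, n = 6 each), so NEG was 3.71-fold higher, and the difference on the log2(FPKM + 1) scale was -1.85 (SE 0.25, limma adjusted p = 0.00522). It was -1.87 without Trp replicate 1 and NEG replicate 2 (limma adjusted p = 0.000496). This gene varied widely among the other media, from a mean FPKM of 7.16 ± 11.2 with valine and 8.20 ± 5.75 with leucine to 50.4 ± 18.2 with isoleucine and 51.9 ± 29.9 with lysine. The valine mean rests on Val replicate 3, at 29.8, and without it was 2.63 ± 1.61 (SD, n = 5). Trp against the mean of the other 9 differed by -0.79 (limma adjusted p = 0.823).

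The 10 largest falls under this rule lay between -1.85 and -1.61. Their lengths were 213 to 1580 bp, with a median of 892 bp, all below the median of the genes tested. Mean FPKM ran from 3.78 to 681 in Trp and from 12.6 to 1786.5 in NEG, so the falls reached both modestly and very highly expressed genes. All 10 were still called without Trp replicate 1 and NEG replicate 2, with differences between 1.64 and 1.89 in size. In the plot of these genes by library, the depth of the fall differed between libraries. Over the 298 genes that fell, the median difference from the NEG mean was -0.48 in Trp replicate 1, -0.63 in replicate 3, -1.18 in replicate 2, -1.28 in replicate 5, -1.59 in replicate 4 and -1.84 in replicate 6. NEG replicate 2 lay on the other side, at 0.64.

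**Figure D2:**
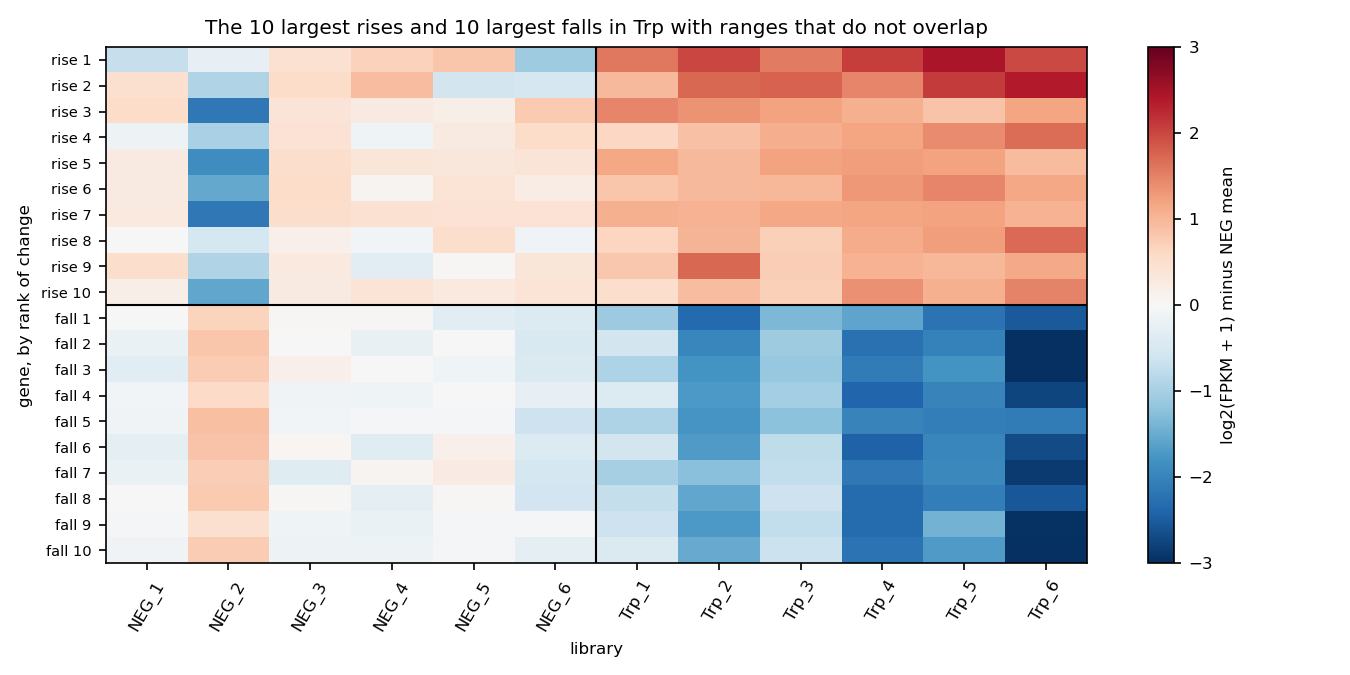
Difference of each library's log2(FPKM + 1) from the NEG mean (colour; values past 3 in size take the end colour) for the 10 largest rises and 10 largest falls with ranges that do not overlap, 1 gene per row and 1 library per column. Trp replicates 1 and 3 are the palest in the falls and Trp replicates 4 and 6 among the darkest, while NEG replicate 2 is opposite in sign to Trp in every fall and in every rise.

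Larger mean falls than these were found in 4 genes that the rule passed over, because 1 Trp library lay in or above the NEG range. In each of the 4 that library was Trp replicate 1. The largest, -3.87, was that of a gene of 55 bp, with an FPKM of 94.6 in Trp replicate 1, no more than 2.30 in the other 5 Trp libraries and 28.3 to 70.9 in NEG. The next, -3.32, was that of a gene of 1314 bp, with an FPKM of 381 in Trp replicate 1, 10.0 to 32.9 in the other 5 and 235 to 331 in NEG. A further gene of 55 bp was among the most abundant features of the table, and fell by 2.58 on the log2 scale. Its FPKM was 62288.6 in Trp replicate 1, 1819.7 to 6450.9 in the other 5 and 28921.7 to 42765.7 in NEG. The last, a gene of 448 bp, fell by 2.11, with an FPKM of 31.9 in Trp replicate 1, 5.03 to 20.7 in the other 5 and 30.9 to 90.8 in NEG. Without Trp replicate 1 the 4 differences became -4.88, -4.08, -3.27 and -2.40, and all kept a limma adjusted p under 0.05. These genes were chosen for description after their values were seen. A FPKM of a gene shorter than the sequenced fragments depends strongly on the length used to compute it, so levels of the 55 bp genes are not comparable with those of longer genes.

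Most of the abundant genes were lower in Trp. Among the 100 genes of highest mean FPKM, 63 were lower in Trp and 1 was higher at an adjusted p under 0.05, against 27.5% lower and 15% higher among all genes tested, and their median difference was -0.50 against -0.06 for all genes. A fall of more than 1 in size was called for 8 of the 100, and a rise of that size for 0, against 2.46% and 0.594% of all genes tested. Without NEG replicate 2, 65 were lower and 2 higher with a median difference of -0.39, against 28.6% lower and 16.2% higher among all genes. Without Trp replicate 1 as well, 65 were lower and 5 higher with a median of -0.44, against 34.7% lower and 23.1% higher among all genes. The share of reads taken by each library's 100 leading genes, a different measure, averaged 25.8% in Trp and 26.2% in NEG (two-sided exact permutation test, p = 0.416, and p = 0.831 without NEG replicate 2).

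The differences also varied with gene length. Genes were divided into 5 classes of equal size by length. From the shortest class, 12 to 1232 bp, to the longest, 3899 to 38086 bp, the number that fell was 204, 66, 20, 6 and 2, and the number that rose was 61, 4, 2, 0 and 5. The median difference of all genes in a class went from -0.25 through -0.22, -0.12 and 0.02 to 0.21. For each library, the median difference from the NEG mean in the longest class minus that in the shortest was 0.41 to 0.57 in Trp, 0.12 to 0.19 in 5 NEG libraries and -0.72 in NEG replicate 2. Trp exceeded NEG in this measure in every library (two-sided exact permutation test, p = 0.0022, the smallest that 6 against 6 can give, and p = 0.0022 without NEG replicate 2). In the same measure the medians of the other single-EAA media were 0.31 to 0.52, against 0.50 in Trp and 0.15 in NEG. The part of this length trend in the called changes was not tested. With the length trend removed from each library 172 genes were called, of which 136 were among the 370.

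**Figure D3:**
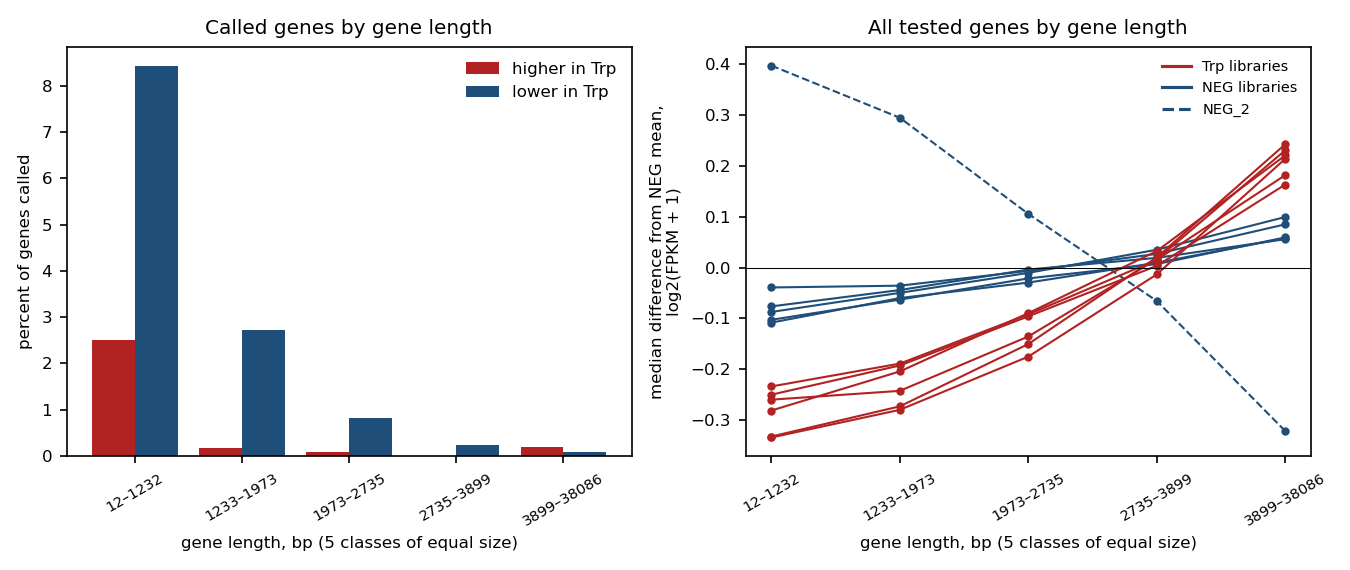
Percent of tested genes called as changed by more than 1 on the log2(FPKM + 1) scale with an adjusted p under 0.05 in each of 5 gene length classes (left), and the median difference of each library from the NEG mean in the same classes (right; 1 line per library). The share that fell drops from 8.41% in the shortest class to 0.0825% in the longest, and the dashed line of NEG replicate 2 runs against the lines of the Trp libraries.

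The 370 genes were then set beside the other media, all of which share the NEG libraries. The 72 genes that rose in Trp had a median difference from NEG of 1.14 in Trp, and of 0.69 with arginine to 1.40 with valine in the other 9 single-EAA media. For the 298 that fell, the median was -1.14 in Trp, and ran from -1.72 with leucine and -1.46 with valine to -0.42 with phenylalanine and -0.33 with threonine. In POS the medians were 1.07 and -1.10. Compared directly with the mean of the other 9 single-EAA media, which leaves NEG out, 0 of the 370 genes differed in the same direction at an adjusted p under 0.05 in limma, 22 did at an unadjusted p under 0.05 (5.95%), and 0 did with limma-voom on the recovered reads. Of all genes tested, 0.239%, 6.15% and 0.363% passed in these ways. Leu replicate 1 and Arg replicate 4 stood apart from their groups, with differences of 1.77 and 1.54 between the longest and shortest genes against group medians of 0.36 and 0.37. Of the 72 libraries they also had the fewest reads, 12006111 and 12803214, the fewest genes above 0, 10495 and 11838, and the lowest mapping efficiencies in the paper. The other leucine libraries had 15747 to 16716 genes above 0, and the other arginine libraries 16150 to 17403. Without Leu replicate 1 and Arg replicate 4, 13 of the 370 passed (3.51%), a share near the 3.63% of all genes tested. In the same length measure, His replicate 1 (-0.04 against 0.35 to 0.48 in the rest of its group), Ile replicate 1 (-0.03 against 0.26 to 0.36) and Val replicate 3 (0.06 against 0.47 to 0.55) also stood apart. Without all 5, 19 of the 370 passed (5.14%), against 5.41% of all genes tested.

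**Figure D4:**
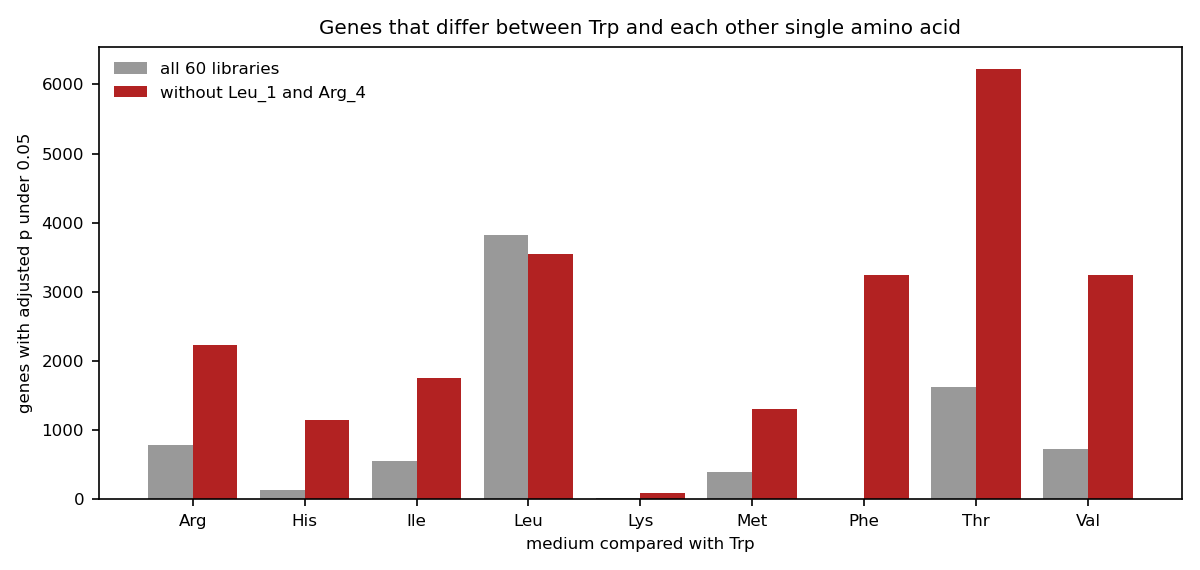
Number of genes with a limma adjusted p under 0.05 between Trp and each of the other 9 single-EAA media (x axis), in 1 fit of the 60 libraries (grey) and without Leu replicate 1 and Arg replicate 4 (red). Lysine, at 11 and 94 genes, is low in both fits, whereas phenylalanine rises from 6 to 3244 and threonine from 1617 to 6230.

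How far Trp stood from another medium depended on which medium it was. In 1 fit of all 60 libraries of the 10 single-EAA media, the number of genes that differed from Trp at an adjusted p under 0.05 was 6 for phenylalanine, 11 for lysine, 126 for histidine, 392 for methionine, 549 for isoleucine, 718 for valine, 779 for arginine, 1617 for threonine and 3814 for leucine. At an unadjusted limma p under 0.05, the same fit gave 517 genes for lysine, 1901 for histidine, 2982 for valine, 3178 for phenylalanine and 5420 for leucine. By that count phenylalanine was farther from Trp than histidine and valine, although it had the fewest genes at the adjusted limit. Without Leu replicate 1 and Arg replicate 4, lysine was lowest with 94 genes and threonine highest with 6230, and phenylalanine moved from 6 to 3244. Without 3 further libraries that stood apart in the length measure (His replicate 1, Ile replicate 1 and Val replicate 3), lysine was again lowest, with 267 genes, and threonine highest, with 7256. The order of most other media changed between these fits. Against POS, in a fit of those 12 libraries, 2651 genes differed, with 1460 higher and 1191 lower in Trp, and 423 and 183 of them by more than 1. Without POS replicate 4, whose difference between the longest and shortest genes was 1.30 against a POS median of 0.44, 4475 genes differed and the excess turned, with 2164 higher and 2311 lower in Trp.

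Changes by tryptophan beyond the other 9 amino acids were few in the fit of all 60 libraries, but their number varied widely with the setting. Each count below is out of the 12121 genes tested. A gene was counted when Trp differed from the mean of the other 9 media and from NEG with the same sign, each at an adjusted p under 0.05, and when its mean in Trp was the highest or lowest of the 10 single-EAA media. This held for 15 genes (0.124%), 7 higher (0.0578%) and 8 lower (0.066%), and none of them was among the 370. The contrast with the other 9 media was 0.27 to 1.13 for the 7 higher genes and 0.20 to 0.76 in size for the 8 lower, and it exceeded 1 in 1 gene (0.00825%), a higher one (0.00825%). By the contrast with the other 9 media alone, 32 genes (0.264%) passed, 20 of them higher (0.165%) and 12 lower (0.099%). Depth was not low: the medians per gene were 66 to 2629.5 reads in Trp. The count fell to between 6 and 9 when any 1 of Trp replicates 2 to 6 was left out, and to 6 (5 higher, 1 lower) with the length trend removed, and it was 289 with array weights. It was 157, with 89 higher and 68 lower, without Leu replicate 1 and Arg replicate 4, and 14 of the 15 were among these. In that setting 9 of the 370 genes, and 2 of the 20 named for Trp against NEG, counted as beyond the other 9. The count was 17 without Trp replicate 1 and NEG replicate 2, with 11 of the 15 among them, and 271 without all 4 libraries, with 14. It was 151, with 77 higher and 74 lower, without Leu replicate 1, Arg replicate 4 and the 3 further libraries that stood apart in the length measure, with 14.

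The gene that stood out was ENSBTAG00000001021, of 2547 bp. Its FPKM in Trp replicates 1 to 6 was 33.6, 31.8, 34.9, 26.0, 25.6 and 23.9, and in NEG replicates 1 to 6 it was 15.6, 13.8, 16.1, 16.7, 17.8 and 14.5. All Trp libraries were above all NEG libraries, with 916 to 1459 reads behind each Trp value. Means were 29.3 ± 4.68 and 15.7 ± 1.47 (SD, n = 6 each), a ratio of 1.86, and the difference on the log2(FPKM + 1) scale was 0.84 (SE 0.11, limma adjusted p = 0.00522), which is under the limit of 1 and left the gene out of the 370. Without Trp replicate 1 and NEG replicate 2 it was 0.77 (SE 0.11, limma adjusted p = 0.000633).

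In no other single-EAA medium did ENSBTAG00000001021 rise. Its mean FPKM was 9.98 ± 1.2 with histidine, 10.7 ± 2.44 with valine, 11.0 ± 1.97 with isoleucine, 12.2 ± 1.05 with arginine, 13.1 ± 0.996 with lysine, 13.7 ± 3.91 with leucine, 14.0 ± 1.2 with threonine, 15.8 ± 1.19 with phenylalanine and 16.0 ± 3.18 with methionine (SD, n = 6 each). Against NEG, in fits of each medium with NEG, it was lower with histidine (-0.61, limma adjusted p = 0.000248), valine (-0.54, limma adjusted p = 0.00319), isoleucine (-0.49, limma adjusted p = 0.00520) and lysine (-0.25, limma adjusted p = 0.0216), and the other 5 did not pass. All 6 Trp libraries were above all 54 libraries of the other 9 media, and no other tested gene had this property in either direction.

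The contrast of ENSBTAG00000001021 in Trp with the mean of the other 9 media was 1.13 (SE 0.10, limma adjusted p = 1.9e-11), and with each medium alone it ran from 0.84 for methionine to 1.46 for histidine, at limma adjusted p values of 0.000652 or less. It was the only gene that passed against each of the 9 singly, and 1 of 2 when Leu replicate 1 and Arg replicate 4 were left out. Over the settings tried, its contrast with the other 9 media stayed between 1.07 and 1.19. The level in complete medium was higher still. The POS mean was 88.5 ± 21.8 (SD, n = 6), with a lowest library of 67.5, and POS exceeded NEG by 2.39 (SE 0.15, limma adjusted p = 3.0e-07). Trp was below POS by 1.54 on the log2(FPKM + 1) scale (limma adjusted p = 2.4e-05), with no overlap between the 2 groups.

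**Figure D5:**
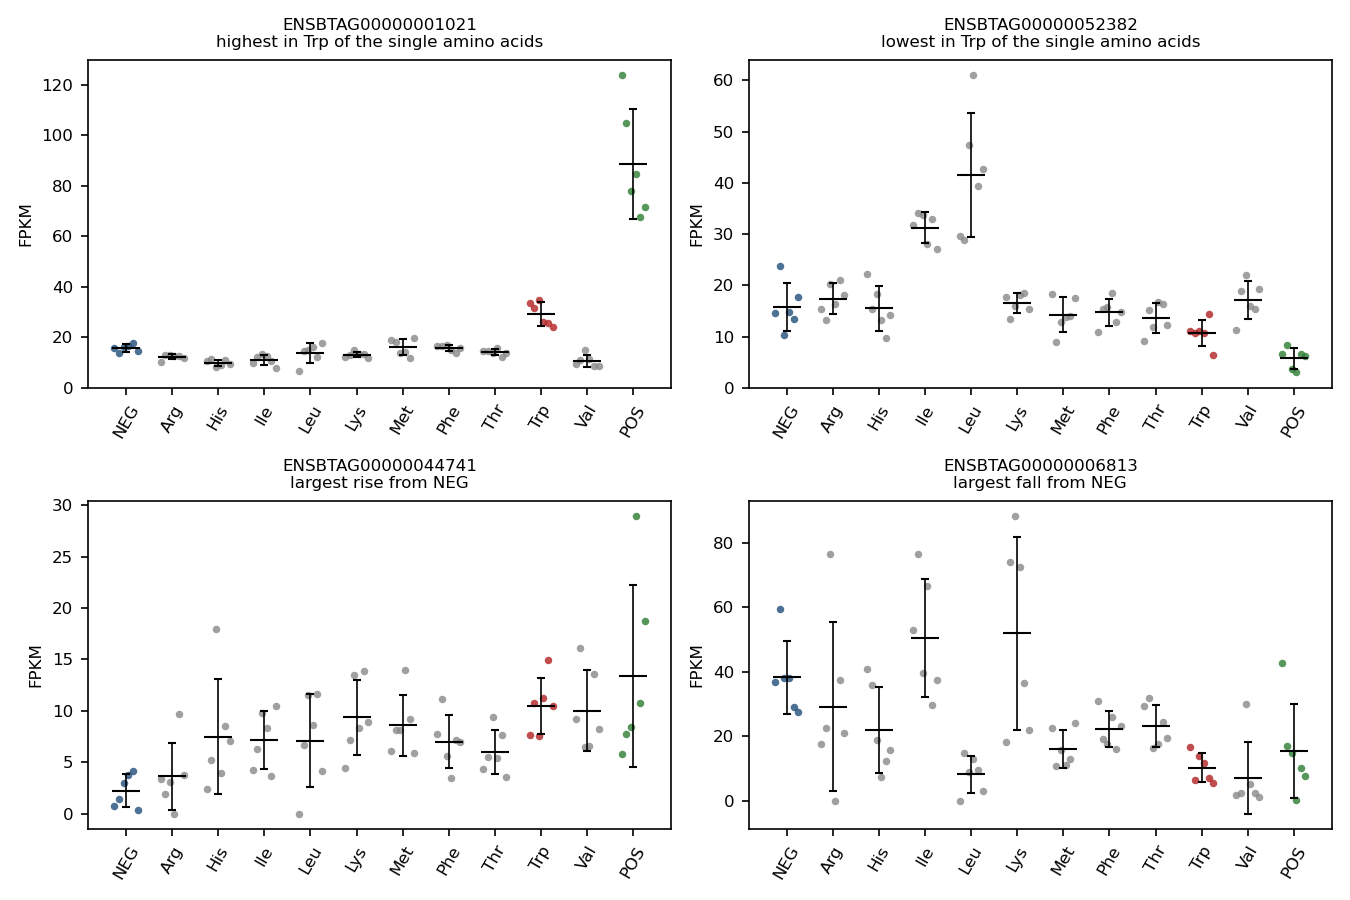
FPKM of the 4 genes named by identifier (y axes, linear, of different range) in the 6 libraries of each of the 12 media, with the mean (horizontal line) and SD (bars). In the upper left panel, the 6 Trp points lie between 23.9 and 34.9, above all NEG and other single-EAA points and below all POS points, while in the other 3 panels Trp overlaps several other media.

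The other 6 genes that were higher in Trp had contrasts of 0.27 to 0.40 with the other 9 media. The highest of these belonged to a gene of 2436 bp, whose mean FPKM was 19.96 in Trp and 11.3 in NEG, a difference of 0.81 (limma adjusted p = 0.00615). Their differences from NEG were 0.30 to 0.81. The median length of the 7 higher genes was 4314 bp, and that of the 8 lower ones 1525.5 bp.

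Of the genes lower in Trp than with the other 9 amino acids, ENSBTAG00000052382, a gene of 381 bp, had the largest contrast. Its FPKM in Trp replicates 1 to 6 was 11.1, 10.7, 11.0, 10.7, 14.4 and 6.45, and in NEG replicates 1 to 6 it was 14.7, 23.7, 10.2, 14.8, 13.4 and 17.8, so the groups overlapped. Means were 10.7 ± 2.54 and 15.8 ± 4.59 (SD, n = 6 each), and the difference on the log2(FPKM + 1) scale was -0.50 (SE 0.19, limma adjusted p = 0.0454). This call was lost without NEG replicate 2, its highest NEG library (-0.38, limma adjusted p = 0.0825), and without both NEG replicate 2 and Trp replicate 1 (-0.40, limma adjusted p = 0.0785), and the gene then no longer counted among those beyond the other 9. The contrast with the other 9 media was -0.76 (SE 0.13, limma adjusted p = 0.000416).

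By single medium, ENSBTAG00000052382 in Trp was farthest below the branched-chain amino acids leucine and isoleucine. Its mean FPKM was 41.5 ± 12.1 with leucine and 31.2 ± 3.02 with isoleucine, and Trp was below them by 1.84 (limma adjusted p = 1.2e-11) and 1.48 (limma adjusted p = 3.3e-08) on the log2(FPKM + 1) scale. Trp was also below arginine by 0.67 (limma adjusted p = 0.00951) and below valine by 0.63 (limma adjusted p = 0.0207). Against histidine, lysine, methionine, phenylalanine and threonine the differences, from -0.60 to -0.32, did not pass. In POS it was lower than in Trp, at 5.71 ± 1.98 (SD, n = 6), and Trp exceeded POS by 0.83 (limma adjusted p = 0.0169). In fits of each medium with NEG, this gene rose with leucine (1.34, limma adjusted p = 0.000712) and isoleucine (0.98, limma adjusted p = 0.000871). With arginine, histidine, lysine, methionine, phenylalanine, threonine and valine the differences from NEG, from -0.19 to 0.16, did not pass. The part of the leucine and isoleucine rises in the contrast with the mean of the other media was not tested.

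The remaining 7 lower genes had contrasts of 0.20 to 0.65 in size. The largest, -0.65, was that of a gene of 729 bp with a mean FPKM of 28.9 in Trp and 45.7 in NEG, a difference of -0.61 (limma adjusted p = 0.00685). The most highly expressed of those described, a gene of 1926 bp, had a mean FPKM of 65.4 in Trp and 87.6 in NEG.

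The 15 genes were also read in complete medium, which holds tryptophan with all other EAA. Of the 7 higher in Trp, 4 were higher in POS than in NEG at an adjusted p under 0.05 and 1 was lower, where 14.3% of all tested genes were higher in POS at that limit. Of the 8 lower in Trp, 3 were lower in POS than in NEG and 1 was higher, where 18.5% of all tested genes were lower. Both comparisons share the NEG libraries, so these counts are a description. Set against the mean of the other 9 media, which leaves NEG out, POS lay on the same side as Trp for 4 of the 7 and 4 of the 8, near the 50.9% and 49.1% of all tested genes.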

How the data were processed

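RNA-seq of 72 libraries was used. Per the paper, the authors trimmed the reads with Trimmomatic. The submitters' processing notes list HISAT2 2.0.5, StringTie 1.3.3b, featureCounts 1.5.0-p3 and DESeq2 1.20.0, while the paper names cufflinks and htseq-count, and paper and labels also differ on the library kit. The build of the genome was not given in the sources used here. As deposited, the values are FPKM, 1 column per library, for 29550 genes, of which 27570 have Ensembl identifiers and 1980 a running name. Since no identifier matched the 37063 genes of the reference table (ARS-UCD2.0), the gene lists and cell type markers planned by symbol were not run, and no sequence is shown. Only 4 identifiers are printed, the foremost of each part of the naming rule.

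Reads were recovered from the deposited FPKM as whole multiples. A gene length was accepted only if every value of the gene came within 0.001 of a whole number of reads. Such a length was found for all 23683 genes above 0 in any library. The closeness to whole numbers is therefore the rule of the recovery and not a check of it. Where reads are few, the recovered length can be off by a whole divisor. The number of reads limits the precision of low genes, and PCR copies were not marked. Among the 6 Trp and among the 6 NEG libraries, no pair agreed within sampling noise.

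Tests used limma 3.58.1 (R 4.3.3, empirical Bayes, prior variance following mean expression) on log2(FPKM + 1), for genes averaging an FPKM of 1 or more. The study's limits were p under 0.05, with no adjustment stated, and an absolute log2 fold change above 1, and adjusted counts stand beside them. Trp and NEG were fitted alone, and the 60 libraries of the single-EAA media together. Library measures were compared by exact permutation tests over 924 splits, or over 462 without NEG replicate 2. Named genes were the 10 largest rises and 10 largest falls among called genes with ranges that do not overlap and 3 or more mean FPKM in the higher group, and the 6 largest contrasts each way beyond the other 9 media. The members, lists and rules were chosen with earlier results of these data known.

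Same-numbered Trp and NEG libraries deviated together (r = 0.10, 0.24, 0.12, 0.15, 0.11 and 0.13 across genes, for replicates 1 to 6), although for replicates 1, 3 and 4 the largest correlation with another number was as high or higher (0.12, 0.12 and 0.21). As all 6 exceeded 0.1, a fit with the replicate number as a block was run. The labels do not say what the number marks. Alternatives covered pseudocount, filter, scaling, length trend, array weights, limma-voom on the recovered reads, the block, 1 fit of all 12 media, and leaving libraries out. Omission of Leu replicate 1 and Arg replicate 4 from the counts against each medium singly, of all 4 libraries together, of the 5 libraries of the other 9 media that stood apart in the length measure, of POS replicate 4, and of NEG replicate 2 and Trp replicate 1 for the abundant genes, was added after the data were seen.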

Additional observations from a re-analysis of the deposited data

Results flagged for a closer look

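In 5 of 20 sets of 6 Trp or NEG libraries examined, the highest or lowest library lay farther from the rest than Dixon's limit for 6 samples allows, where chance gives about 1 in 20. In these 5 sets that library was NEG replicate 2. Its 100 leading genes took 28.3% of the reads, against 25.5% to 26.2% in the other NEG libraries. Its difference between the longest and the shortest genes was -0.72, against 0.12 to 0.19. The other 3 sets rest on genes chosen by the contrast that holds NEG replicate 2, which favours genes in which it is extreme, so the rate of 1 in 20 does not apply to them. Its median difference from the NEG mean over the 72 genes that rose was -0.71, against 0.01 to 0.29, and over the 298 that fell it was 0.64, against -0.27 to -0.04. Its FPKM of ENSBTAG00000006813 was 59.5, against 27.5 to 38.1.

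Of 50 sets from the other media (the length measure and the 4 named genes), 6 passed the limit. In the difference between the longest and the shortest genes, these were Arg replicate 4 (1.54, against 0.24 to 0.44), His replicate 1 (-0.044, against 0.35 to 0.48), Ile replicate 1 (-0.035, against 0.26 to 0.36), Leu replicate 1 (1.77, against 0.32 to 0.46) and Val replicate 3 (0.063, against 0.47 to 0.55). The FPKM of ENSBTAG00000006813 was 29.8 in Val replicate 3, against 1.12 to 5.32 in the other valine libraries.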

How the results depend on the processing

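Called genes by the unadjusted and the adjusted limit, 374 and 370, became 634 and 581 with a pseudocount of 0.1, 653 and 603 with limma-voom on the recovered reads, and 181 and 172 with the length trend removed. Leaving out 1 Trp library gave 231 to 577 and 216 to 567, and leaving out 1 NEG library 217 to 438 and 208 to 428. The adjusted count moved by more than 1.5 times without Trp replicate 1 (567), Trp replicate 6 (216) or NEG replicate 2 (208, of which 34 rose and 174 fell and 203 were among the 370). More genes fell than rose under each of these.

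Genes changed beyond the other 9 media, 15, became 6 with the length trend removed (5 higher, 1 lower), 289 with array weights, 157 without Leu replicate 1 and Arg replicate 4, 151 without these and His replicate 1, Ile replicate 1 and Val replicate 3, 271 without Leu replicate 1, Arg replicate 4, Trp replicate 1 and NEG replicate 2, 1 when each medium had to be passed singly, and 2 when it was so without Leu replicate 1 and Arg replicate 4. Without 1 Trp library there were 6 to 17, moved by more than 1.5 times without replicate 2 (8), 3 (8), 4 (6), 5 (8) or 6 (9), and without 1 NEG library 13 to 15. Whether more of these genes are higher or lower changed with the setting. The cause of these shifts was not tested.

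With the replicate block, for the pairing by replicate number, the counts were 376, 375 and 13, and the block ended no call among the named genes. Of 458 values for the 20 genes named for Trp against NEG, 450 kept direction and side of the adjusted p threshold and 8 lost the threshold. For the 12 genes beyond the other 9 media, 275 of 311 did and 36 lost it. No value changed sign.

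Depth limits the 28 of 72 rises with a median under 10 reads in Trp and the 7 of 298 falls with a median under 10 reads in NEG.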
